A study of Mus musculus with 24 samples.

Results

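EMB+ cells were compared with EMB- cells of the long bones (femur and tibia) of male mice on postnatal day 10. All cells were labelled wild type and GFP-. GFP marks the lineage of Zic1-cre in this series, but in cells labelled wild type its absence alone does not give their lineage. Both groups carried CD200 and lacked CD45, Ter119 (blood markers), CD31 (endothelium), Thy1, 6C3 (the Enpep product) and CD105 (the Eng product), and they differed in surface embigin, the product of Emb. There were 4 EMB+ and 4 EMB- libraries, given as biological replicates in the titles. Nothing says how many mice went into each, so p-values measure the spread between these samples. Levels are in FPKM, the number of sequenced fragments scaled to transcript length and library size. The genes described reached 1 FPKM in 4 or more long bone libraries, which left 11128 of the 21864 genes kept. A gene could pass this filter through the 4 libraries of 1 group alone, which favoured a change towards that group. In the whole series of 24 libraries, vertebral EMB+ and EMB- cells, GFP+ and GFP-, were sorted through the same gate, with 4 libraries per group. The titles of the 4 vertebral GFP- EMB+ libraries name another sort than their cell type label, which was followed here.

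A long bone of a growing animal lengthens at its growth plate. Round resting chondrocytes feed columns of dividing chondrocytes, which enlarge into hypertrophic cells that secrete type X collagen, degrade their matrix and give way to bone. Indian hedgehog from prehypertrophic cells and PTHrP from the resting zone form a feedback loop that sets where enlargement begins, with BMP, Wnt, FGF and IGF signals acting on the same cells. Surface gates like the present one are used to enrich skeletal stem and progenitor cells, and Embigin is a membrane glycoprotein that accompanies lactate transporters.

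EMB- replicate 4 stood apart. Its correlation with the other EMB- libraries was 0.920 to 0.940, while pairs of EMB+ libraries ranged from 0.977 to 0.988. The highest correlation of each of EMB- replicates 1 to 3 within its group was 0.979 to 0.981. Its FPKM values summed to 566107, against 422163 to 440118 in EMB+ libraries and 414751 to 452920 in EMB- replicates 1 to 3. Relative to the other replicates of its group, its genes with under 1 kb of exon were higher by a median of 0.93 on the log2 scale (295 genes), those of 1 to 2 kb by 0.65 (1204 genes), those of 2 to 4 kb by 0.13 (3323 genes), and those of 4 kb or more lower (-0.32, 6295 genes). In the other 7 libraries these medians lay between -0.53 and 0.15. Counts of list genes past the threshold in long bone are also given without this library where it changes them, and its part in the results was not tested beyond that.

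**Figure D1:**
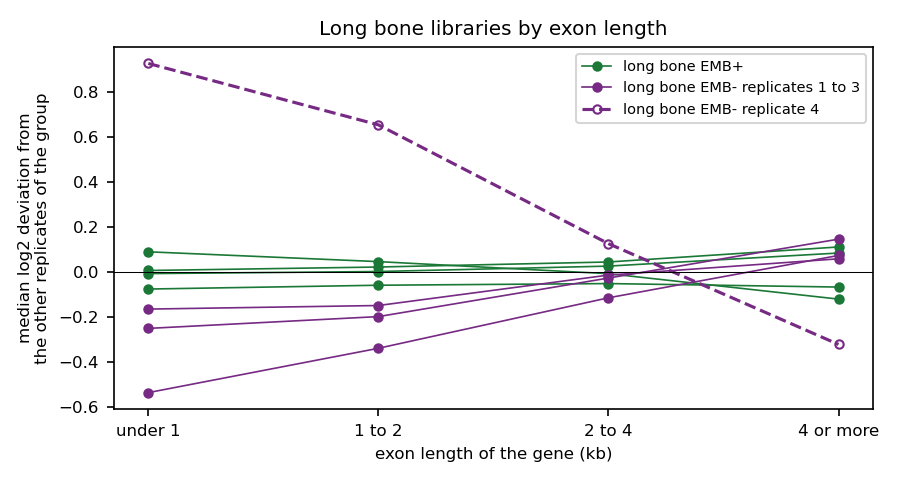
Median log2 deviation of each long bone library from the other replicates of its group (vertical axis) by exon length of the gene in kb (horizontal axis), 1 line per library, EMB+ in green and EMB- in purple. EMB- replicate 4 (dashed line, open points) runs from 0.93 for genes under 1 kb to -0.32 for genes of 4 kb or more, while the other 7 libraries stay between -0.53 and 0.15.

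The sort marker followed the label in every library. Emb (chromosome 13, 117220625 to 117274098, GRCm38) stood at 32.1, 30.1, 40.4 and 36.1 FPKM in the EMB+ libraries, against 0.934, 1.06, 1.04 and 0.685 FPKM in the EMB- libraries. All EMB+ values lay far above all EMB- values, and the change on the log2(FPKM + 1) scale used throughout was 4.20 ± 0.16 (SE, adjusted p = 1.4e-07, limma with Benjamini-Hochberg adjustment over all genes tested). Since the cells were sorted on this protein, this is a check and not a finding. Cd200, carried by both groups, stood at 192.3, 196, 164.6 and 139 FPKM in EMB+ cells, against 239, 190.7, 199.6 and 563 FPKM in EMB- cells (change -0.64 ± 0.32, adjusted p = 0.19), and only EMB- replicate 4 was far from the rest. Eng reached 1.74 FPKM in EMB+ and 1.95 FPKM in EMB- cells, and Ptprc (CD45), Pecam1 (CD31), Thy1 and Zic1 stayed below 1 FPKM in all 8 libraries. Cartilage genes were abundant on both sides of the sort: Col2a1, the fibrillar collagen of cartilage, ranged from 21746 to 32064 FPKM in EMB+ cells and from 25140.0 to 33217 FPKM in EMB- cells. Lactate transporters and their partners were measured in both groups. Bsg (basigin), Nptn (neuroplastin), Slc16a1 (MCT1) and Slc16a3 (MCT4) did not pass the test with all 8 libraries (adjusted p = 0.18, 0.55, 0.21 and 0.55), and Slc16a1, at 22.2 to 32.7 FPKM in EMB+ and 20.6 to 67.5 FPKM in EMB- cells, fell without EMB- replicate 4 (-0.93, adjusted p = 0.0032).

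Of the 11128 genes, 836 (7.51%) rose and 1176 (10.6%) fell in EMB+ cells, 254 and 796 of them by 2-fold or more on this scale, around a median change of 0.08 over all genes. In this fit the falls were thus more numerous than the rises, and more of them reached 2-fold. The order of the counts was not the same in every fit. Without EMB- replicate 4, 1920 genes (17.3%) rose and 1673 (15%) fell. Rises also outnumbered falls with library weights (2749 and 2087) and in the fit of all 24 libraries (2042 and 1807). Of the first calls, 830 rises and 1173 falls were made in both fits, and 0 genes were called with opposite signs. Without EMB+ replicate 1, 2, 3 or 4 the rises numbered 497, 511, 505 and 528, and the falls 915, 951, 974 and 1002. With median-ratio scaling 596 genes rose and 1310 fell. All EMB+ libraries lay above all EMB- libraries for 1429 genes (12.8%) and below them for 1366 (12.3%). Counts of list genes below stand beside shares of 7.51% rises and 10.6% falls over all genes, or 17.3% and 15% without EMB- replicate 4.

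Msmp headed the 12 leading rises in EMB+ cells. The gene, which encodes a small secreted microseminoprotein (chromosome 4, 43583216 to 43584494), stood at 433, 1076, 1176 and 1041 FPKM in EMB+ cells, against 2.35, 1.06, 1.69 and 4.41 FPKM in EMB- cells. It was among the abundant transcripts of every EMB+ library and close to the filter limit in every EMB- library, with a change of 8.10 ± 0.35 (adjusted p = 5e-07). Bpifb1, a secreted BPI-fold protein known from airways (chromosome 2, 154190818 to 154220369), stood at 25.4, 30.3, 33.7 and 28.8 FPKM in EMB+ cells, against 0.194, 0.307, 0.569 and 0.463 FPKM in EMB- cells (4.47 ± 0.16, adjusted p = 1.4e-07). Its EMB+ values varied little and its EMB- values never reached 1 FPKM. Il17b, a cytokine of the interleukin 17 family, had 44.1, 32.6, 50.1 and 50.5 FPKM in EMB+ cells and 2.09, 1.60, 2.497 and 2.71 FPKM in EMB- cells (3.80 ± 0.19, adjusted p = 5.4e-07). Its groups were likewise far apart, with a spread within each far smaller than the gap.

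Further leading rises were those of Car12, Fxyd2, Stc1, Ppa1, R3hdml and H2-DMa. Car12, a membrane-bound carbonic anhydrase, stood at 21.8, 18.9, 34.5 and 31.2 FPKM in EMB+ cells, against 2.98, 2.37, 2.51 and 1.01 FPKM in EMB- cells (3.10 ± 0.25, adjusted p = 1.2e-05). Fxyd2, a regulatory subunit of the sodium-potassium pump, had 25.5, 14.3, 25.8 and 23.6 FPKM in EMB+ cells and 1.17, 0.160, 2.01 and 5.603 FPKM in EMB- cells (3.10 ± 0.43, adjusted p = 0.00054). The EMB- values of Fxyd2 spread widely, with replicate 4 the highest, but stayed below every EMB+ value, as the choice of leading genes required. Stc1 (stanniocalcin 1), a secreted glycoprotein linked to calcium and phosphate balance, stood at 5.01, 14.0, 10.5 and 14.0 FPKM in EMB+ cells, against 0.521, 0.322, 0.319 and 0.334 FPKM in EMB- cells (3.03 ± 0.27, adjusted p = 2.4e-05). Ppa1, an inorganic pyrophosphatase, had 247, 174.2, 293 and 286 FPKM in EMB+ cells and 37.4, 24.97, 30.0 and 40.5 FPKM in EMB- cells (2.87 ± 0.22, adjusted p = 6.2e-06). R3hdml ranged from 22.6 to 28.1 FPKM in EMB+ and from 2.02 to 4.78 FPKM in EMB- cells (2.80 ± 0.21, adjusted p = 5.3e-06). H2-DMa, a chain of the class II peptide loader H2-DM, ranged from 19.2 to 26.2 FPKM in EMB+ and from 2.36 to 2.98 FPKM in EMB- cells (2.66 ± 0.15, adjusted p = 1.1e-06). Apart from Emb, the remaining leading rises, Col10a1 and Panx3, belong to hypertrophic cartilage.

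**Figure D2:**
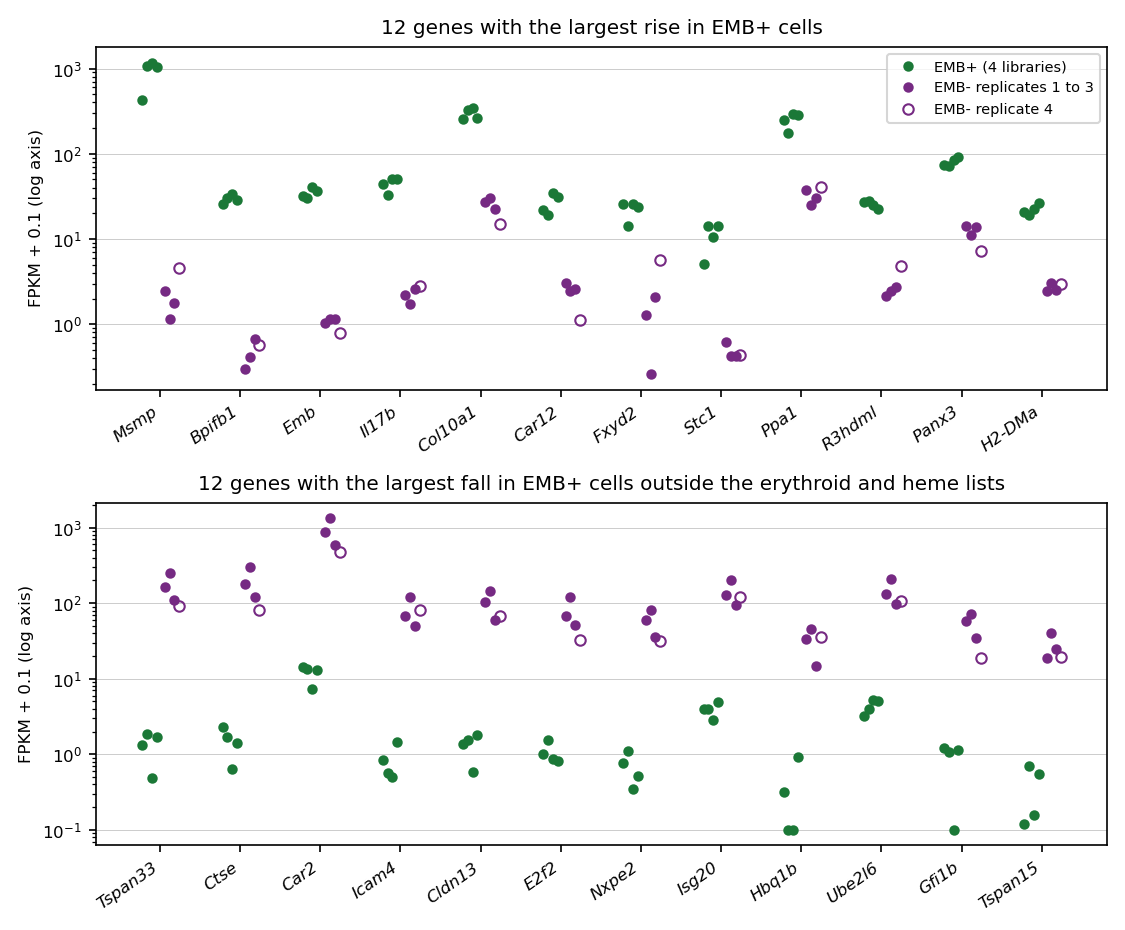
FPKM + 0.1 on a log axis in each of the 8 long bone libraries for the 12 genes with the largest rise (upper panel) and the 12 with the largest fall outside the erythroid and heme lists (lower panel), EMB+ in green and EMB- in purple, with EMB- replicate 4 as an open point. In every gene shown the 4 EMB+ points and the 4 EMB- points do not overlap, which was a condition for choosing these genes. Msmp reaches 1176 FPKM in EMB+ cells and at most 4.41 FPKM in EMB- cells, while Car2 reaches at most 14.2 FPKM in EMB+ and 1324 FPKM in EMB- cells.

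Many genes of hypertrophic cartilage rose in EMB+ cells. Of the 20 measured, 11 rose and 0 fell, where 7.51% and 10.6% of all genes did (median 0.78, against 0.08 over all genes), and 9 of the tested members did not pass. Without EMB- replicate 4, 12 rose and 1 fell. Col10a1, which encodes the type X collagen that defines hypertrophic chondrocytes (chromosome 10, 34389981 to 34397085), stood at 257, 327, 342 and 264 FPKM in EMB+ cells, against 26.7, 30.5, 22.5 and 14.8 FPKM in EMB- cells (3.64 ± 0.22, adjusted p = 1.4e-06). Both groups thus held measurable Col10a1, with the lowest EMB+ library far above the highest EMB- library. Panx3, a channel protein of hypertrophic cells and osteoblasts, had 73.5, 71.5, 85.3 and 91.0 FPKM in EMB+ cells and 13.9, 10.9, 13.7 and 7.09 FPKM in EMB- cells (2.75 ± 0.20, adjusted p = 5.6e-06). The collagenase gene Mmp13 had 333, 479, 308 and 265 FPKM in EMB+ cells and 146, 123, 90.6 and 56.2 FPKM in EMB- cells (1.78 ± 0.30, adjusted p = 0.0016). Its lowest EMB+ value was still above its highest EMB- value.

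Of the transcription factors on the list, Runx2, Runx3, Sp7 and Dlx5 rose, and Mef2c, Mef2d and Dlx6 did not pass with all 8 libraries (adjusted p = 0.31, 0.20 and 0.36). Runx2 stood at 41.0, 53.6, 35.6 and 34.2 FPKM in EMB+ cells, against 17.7, 13.7, 14.8 and 11.1 FPKM in EMB- cells (1.45 ± 0.19, adjusted p = 0.00032). Runx3, which acts with Runx2 in chondrocyte maturation, had 11.9, 14.0, 15.0 and 11.7 FPKM in EMB+ cells and 2.68, 2.45, 2.67 and 3.07 FPKM in EMB- cells (1.92 ± 0.15, adjusted p = 9.1e-06). Sp7 (osterix) had 73.3, 80.5, 49.3 and 46.0 FPKM in EMB+ cells and 27.6, 24.9, 15.7 and 11.6 FPKM in EMB- cells (1.63 ± 0.28, adjusted p = 0.002). In none of the 3 did the groups overlap, and in Sp7 replicates 1 and 2 were the higher in both groups. Dlx5 rose less (0.76 ± 0.17, adjusted p = 0.0094), with 40.8 to 62.2 FPKM in EMB+ and 28.2 to 36.3 FPKM in EMB- cells. Of the genes for mineralization, Phospho1, a phosphatase that starts mineral deposition in matrix vesicles, had 48.9, 49.8, 33.0 and 31.5 FPKM in EMB+ cells and 18.3, 17.3, 11.0 and 19.97 FPKM in EMB- cells (1.24 ± 0.22, adjusted p = 0.0025). Alpl, the phosphatase that degrades pyrophosphate outside the cell, ranged from 248 to 433 FPKM in EMB+ and from 122 to 202 FPKM in EMB- cells (0.88 ± 0.24, adjusted p = 0.024), a call lost without EMB- replicate 1 (0.0566), EMB+ replicate 1 (0.0772) or EMB+ replicate 2 (0.0782). Its counterparts that raise or export pyrophosphate did not pass with 8 libraries: Enpp1 had 41.6 to 67.3 FPKM in EMB+ and 19.98 to 56.2 FPKM in EMB- cells (adjusted p = 0.44), and Ank had 32.6 to 42.8 and 32.2 to 64.1 FPKM (adjusted p = 0.23, and a fall of 0.60 without EMB- replicate 4, adjusted p = 0.0063). Late markers shared with bone were high in both groups and did not pass: Spp1 (osteopontin) had 5738, 6795, 3765 and 3546 FPKM in EMB+ cells and 3864, 2817, 2142 and 2379 FPKM in EMB- cells (adjusted p = 0.076), and Ibsp (bone sialoprotein) 825 to 1511 FPKM in EMB+ and 869 to 1023 FPKM in EMB- cells.

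**Figure D3:**
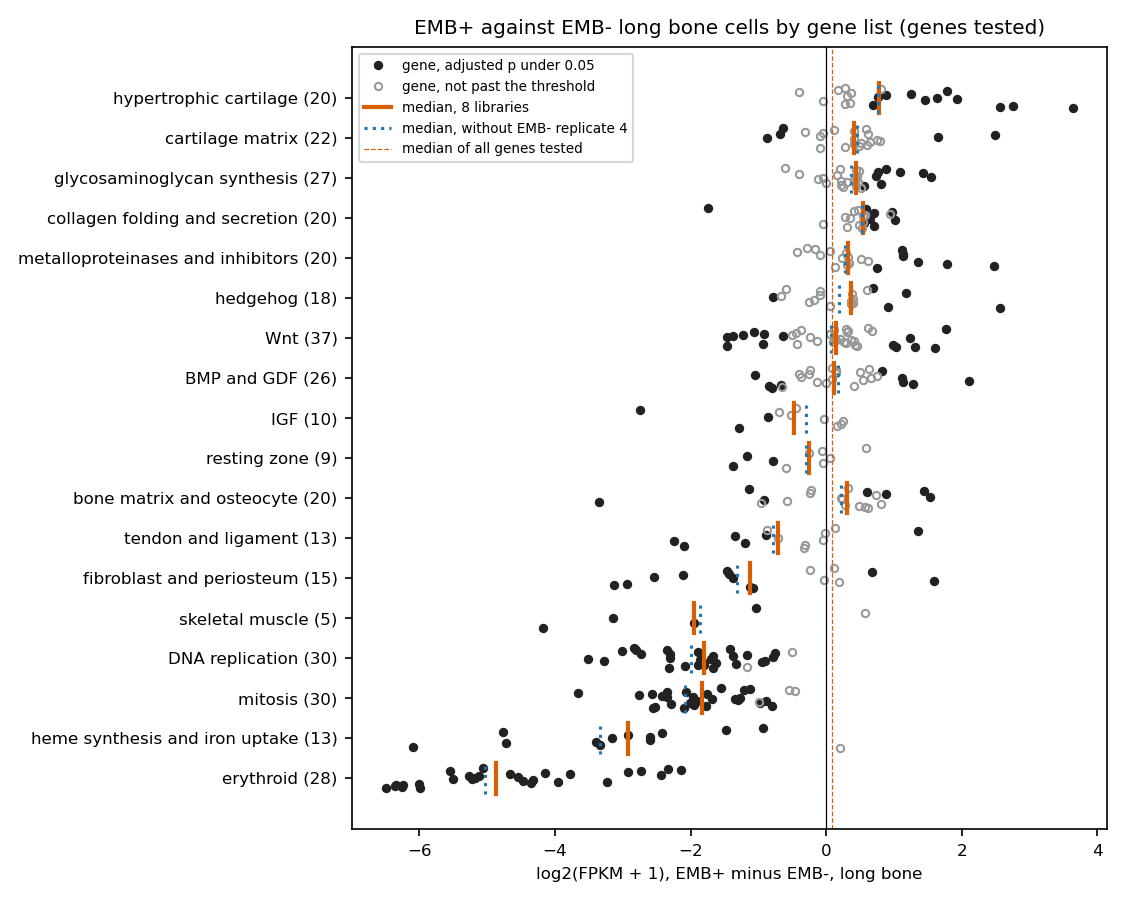
Change between EMB+ and EMB- long bone cells on the log2(FPKM + 1) scale for each tested gene of 18 gene lists, with filled points for genes past the threshold, an orange bar for the list median and a dotted blue bar for the median without EMB- replicate 4. Hypertrophic cartilage (median 0.78) lies right of the median of all genes (0.08), and DNA replication (-1.80), mitosis (-1.84), heme synthesis (-2.92) and erythroid genes (-4.87) lie left of it.

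A few genes of the hedgehog and PTHrP loop separated the groups. Ihh, the hedgehog ligand of prehypertrophic chondrocytes (chromosome 1, 74945315 to 74951672), stood at 26.6, 22.4, 25.9 and 35.3 FPKM in EMB+ cells, against 2.48, 3.28, 5.81 and 4.07 FPKM in EMB- cells (2.56 ± 0.22, adjusted p = 1.8e-05). Even the lowest EMB+ library held far more Ihh than the highest EMB- library. Pth1r, the PTHrP receptor, had 321, 326, 266 and 262 FPKM in EMB+ cells and 183, 161.3, 167.02 and 215 FPKM in EMB- cells (0.69 ± 0.17, adjusted p = 0.018), a call lost without EMB- replicate 1 (0.0501) or 2 (0.0547) or EMB+ replicate 1 (0.0668) or 2 (0.0635). The ligand gene Pthlh had 14.5, 14.9, 22.003 and 19.1 FPKM in EMB+ cells and 23.1, 19.5, 36.2 and 30.9 FPKM in EMB- cells and did not pass with 8 libraries (-0.59 ± 0.21, adjusted p = 0.08), but fell without EMB- replicate 2 (-0.74, adjusted p = 0.0414) and with median-ratio scaling (-0.67, adjusted p = 0.0445). Its groups overlapped. Of the 18 tested genes of the loop, 4 rose and 1 fell, where 7.51% and 10.6% of all genes did (4 and 2 without EMB- replicate 4). Between 2 and 5 rose when a library was left out (2 without EMB- replicate 1 or 2 or EMB+ replicate 2). Downstream of the ligand, Kif7, a ciliary kinesin of the pathway, rose (1.17 ± 0.17, adjusted p = 0.00068), with 3.97 to 5.23 FPKM in EMB+ and 1.20 to 2.18 FPKM in EMB- cells. The target gene Gli1 had 5.25 to 6.76 FPKM in EMB+ and 3.35 to 6.62 FPKM in EMB- cells and did not pass (adjusted p = 0.19), nor did Smo, Hhip, Gli2 and Gli3 with all 8 libraries.

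Some genes known from the resting zone fell in EMB+ cells. Sfrp5, a secreted Wnt inhibitor, had 180.3, 179.6, 208 and 184.7 FPKM in EMB+ cells and 523, 360.5, 514 and 587 FPKM in EMB- cells (-1.37 ± 0.19, adjusted p = 0.0005). The groups did not overlap. Spon1 (spondin 1) ranged from 12.6 to 19.8 FPKM in EMB+ and from 22.9 to 66.7 FPKM in EMB- cells (-1.17 ± 0.29, adjusted p = 0.015), a call lost without EMB+ replicate 1 (0.0549). Gas1, a surface hedgehog co-receptor, had 234, 261, 324 and 353 FPKM in EMB+ cells and 428, 459.6, 567 and 560.2 FPKM in EMB- cells (-0.79 ± 0.20, adjusted p = 0.018), a call lost without EMB+ replicate 1 (0.072) or 2 (0.0627). These 3 of the 9 tested genes fell and 0 rose, where 10.6% and 7.51% of all genes did. There was 1 fall without EMB+ replicate 1 and 1 rise without EMB- replicate 4. Wif1, Ucma and Grem1 did not pass, with Wif1 at 459.7 to 651 FPKM in EMB+ and 416 to 695 FPKM in EMB- cells.

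Structural cartilage genes were strongly present in both groups, and few passed with all 8 libraries. Of 22 tested, 2 rose and 3 fell, where 7.51% and 10.6% of all genes did (median 0.41, against 0.08 over all genes). All EMB+ libraries lay above all EMB- libraries for 7 of them and below for 2 (12.8% and 12.3% over all genes). The calls were 11 rises and 3 falls without EMB- replicate 4 (17.3% and 15% over all genes), and 7 and 2 with quantile normalization. Epyc (epiphycan), a small proteoglycan of cartilage, stood at 131, 110.0, 213 and 204 FPKM in EMB+ cells, against 33.0, 24.5, 35.4 and 19.6 FPKM in EMB- cells (2.49 ± 0.26, adjusted p = 6.6e-05). Matn3 (matrilin 3), a matrix adaptor, had 650.0, 614, 861 and 837 FPKM in EMB+ cells and 272, 244, 339 and 132 FPKM in EMB- cells (1.64 ± 0.28, adjusted p = 0.0019). Both genes were higher in EMB+ replicates 3 and 4 than in 1 and 2. The 3 falls were small and lost in several fits. Matn2 had 20.4 to 39.5 FPKM in EMB+ and 45.5 to 63.4 FPKM in EMB- cells, Chad (chondroadherin) 1095 to 1345 and 1625 to 2390.1 FPKM, and Frzb, a Wnt inhibitor, 43.1 to 65.3 and 65.1 to 102 FPKM, and 0 of the list's genes fell without EMB- replicate 2 or EMB+ replicate 1 or 2, with 1 falling without EMB- replicate 1 or 3 or EMB+ replicate 4. Comp, which binds collagens, had 2040.2, 2037, 2747 and 2751 FPKM in EMB+ cells and 1188, 1093, 1514 and 2021 FPKM in EMB- cells and did not pass with all 8 libraries (adjusted p = 0.06), but rose without EMB- replicate 4 (0.92, adjusted p = 0.0023). Acan (aggrecan) and Col9a3 likewise passed without that library (0.70 and 0.79, adjusted p = 0.017 and 0.0073). Among 14 cartilage transcription factors 1 rose, Nkx3-2, which holds chondrocytes before hypertrophy, with 16.5, 20.3, 21.7 and 18.6 FPKM in EMB+ cells and 6.04, 6.00, 7.46 and 7.70 FPKM in EMB- cells (1.38 ± 0.15, adjusted p = 0.00011). Sox9, the master regulator of cartilage, had 217 to 339 FPKM in EMB+ and 159 to 275 FPKM in EMB- cells and did not pass (adjusted p = 0.18). Without EMB- replicate 4, 2 of these factors rose and 2 fell.

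Several genes that supply sulfate and sugars for proteoglycans rose. Of 27 tested genes of glycosaminoglycan synthesis, 8 rose and 0 fell with 8 libraries, where 7.51% of all genes rose, and 14 rose and 1 fell without EMB- replicate 4. Slc26a2, the sulfate transporter of chondrocytes, stood at 78.6, 73.5, 112 and 107 FPKM in EMB+ cells, against 36.7, 28.6, 54.5 and 21.2 FPKM in EMB- cells (1.43 ± 0.27, adjusted p = 0.0034). Papss2, which activates the sulfate, had 93.1, 84.0, 122 and 115 FPKM in EMB+ cells and 55.7, 42.1, 65.6 and 33.2 FPKM in EMB- cells (1.09 ± 0.22, adjusted p = 0.006). In both genes every EMB+ library was above every EMB- library, and EMB- replicate 4 was the lowest of all. Ugdh, which makes the glucuronate donor, rose by less (0.88 ± 0.16, adjusted p = 0.0024), with 109.6 to 132 FPKM in EMB+ and 58.0 to 76.5 FPKM in EMB- cells. Papss1 (0.77 ± 0.14) and the heparan sulfate polymerase gene Ext2 (0.73 ± 0.14) also rose (adjusted p = 0.0029 and 0.0032).

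For collagen folding and secretion, 7 of 20 tested genes rose and 1 fell with 8 libraries (7.51% and 10.6% over all genes). This count depended on single libraries. It was 16 rises without EMB- replicate 4, 3 without EMB- replicate 2, and 1, 2, 3 and 4 without EMB+ replicates 1, 2, 3 and 4, with 1 fall each time. It was 3 with median-ratio scaling and 12 with quantile normalization. Serpinh1, the collagen chaperone HSP47, rose in every such fit and had 1639.9, 1590.5, 1404 and 1465 FPKM in EMB+ cells and 735, 659, 750.5 and 875 FPKM in EMB- cells (1.02 ± 0.18, adjusted p = 0.0027). The gene that fell was Ddit3 (CHOP), a stress-induced transcription factor, with 11.2, 12.4, 15.0 and 15.0 FPKM in EMB+ cells and 36.6, 72.2, 40.5 and 44.9 FPKM in EMB- cells (-1.74 ± 0.21, adjusted p = 0.0002).

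Some matrix-degrading enzymes and an inhibitor rose. Of 20 tested metalloproteinases and inhibitors, 7 rose and 0 fell, where 7.51% of all genes rose, and without EMB- replicate 4 9 rose and 1 fell. Mmp9 (gelatinase B) stood at 93.8, 93.2, 102 and 61.8 FPKM in EMB+ cells, against 36.3, 11.2, 12.8 and 8.75 FPKM in EMB- cells (2.47 ± 0.36, adjusted p = 0.0007). Mmp9 is also known from osteoclasts, whose part in its level was not tested. The osteoclast genes Ocstamp, Dcstamp, Calcr, Oscar and Atp6v0d2 were below 1 FPKM in all 8 libraries, and Acp5 (TRAP), at 5.09 to 11.2 FPKM in EMB+ and 15.1 to 35.4 FPKM in EMB- cells, fell (-1.54 ± 0.29, adjusted p = 0.0033). Mmp2 (0.75 ± 0.17, adjusted p = 0.011) and the membrane-bound Mmp16 (1.35 ± 0.26, adjusted p = 0.0042) rose, the second with 25.5 to 35.1 FPKM in EMB+ and 5.65 to 15.9 FPKM in EMB- cells. The aggrecanase gene Adamts4 had 3.55 to 6.96 FPKM in EMB+ and 1.11 to 2.79 FPKM in EMB- cells (1.13 ± 0.24, adjusted p = 0.0072), and Adamts9 2.69 to 3.76 and 0.784 to 1.06 FPKM (1.13 ± 0.15, adjusted p = 0.00038). Timp1, an inhibitor of these enzymes, rose as well (1.11 ± 0.26, adjusted p = 0.013), with 165.4 to 255 FPKM in EMB+ and 61.7 to 128 FPKM in EMB- cells. Signals to osteoclasts and vessels showed 5 rises and 1 fall among 14 genes (7.51% and 10.6% over all genes). Tnfsf11 (RANKL), the osteoclast differentiation factor, had 4.77, 7.11, 4.37 and 3.56 FPKM in EMB+ cells and 3.14, 1.88, 1.38 and 1.69 FPKM in EMB- cells (0.98 ± 0.23, adjusted p = 0.012), and its decoy receptor gene Tnfrsf11b did not pass (adjusted p = 0.31). Pgf (placental growth factor) and the co-receptor gene Nrp1 rose (1.20 ± 0.20 and 0.78 ± 0.13, adjusted p = 0.0018 and 0.0016), Nrp2 rose (1.63 ± 0.38, adjusted p = 0.012) and Angpt1 fell (-0.997 ± 0.23, adjusted p = 0.012). Vegfa, with 18.6 to 29.2 FPKM in EMB+ and 16.2 to 26.2 FPKM in EMB- cells, did not pass (adjusted p = 0.62).

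Genes of the BMP pathway, ligands and inhibitors among them, went both ways, with 5 rises and 4 falls among 26 tested (7.51% and 10.6% over all genes) and 5 of each without EMB- replicate 4. Gdf10, a member of the family (chromosome 14, 33923587 to 33935280), stood at 103, 129 and 172.6 FPKM in EMB+ replicates 1 to 3 and higher again in replicate 4 (mean 148.5 ± 39.9 FPKM, SD, n = 4), against 26.8, 28.8, 44.3 and 33.8 FPKM in EMB- cells (2.104 ± 0.23, adjusted p = 9.4e-05). Bmp7 rose too, with 29.0, 31.4, 30.9 and 28.3 FPKM in EMB+ cells and 13.7, 11.98, 15.6 and 7.18 FPKM in EMB- cells (1.28 ± 0.21, adjusted p = 0.0013). Bmp4 went the other way, with 7.26, 8.63, 8.34 and 7.25 FPKM in EMB+ cells and 13.2, 15.2, 12.7 and 19.4 FPKM in EMB- cells (-0.85 ± 0.17, adjusted p = 0.0043). For these ligands no EMB+ library overlapped an EMB- library. Bmp2 fell as well (-0.80 ± 0.19, adjusted p = 0.015), a call lost without EMB- replicate 1 (0.051) or EMB+ replicate 1 (0.0561) or 2 (0.0553). Of the secreted inhibitors, Nog (noggin) rose, with 8.002 to 12.8 FPKM in EMB+ and 3.54 to 5.34 FPKM in EMB- cells (1.12 ± 0.18, adjusted p = 0.0014), while Chrdl2 fell (-1.05 ± 0.21, adjusted p = 0.0057). The list's rises ranged from 3 to 5 and its falls from 2 to 5 when a library was left out, with 3 rises without EMB- replicate 1 or 2 or EMB+ replicate 3 or 4, and 2 falls without EMB- replicate 1 or EMB+ replicate 1 or 2.

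Wnt genes also went both ways, with 6 rises and 8 falls among 37 tested (7.51% and 10.6% over all genes), and 7 and 9 without EMB- replicate 4. Among ligands, Wnt4 rose, at 8.21, 4.86, 7.504 and 7.56 FPKM in EMB+ cells and 1.89, 1.25, 1.48 and 1.84 FPKM in EMB- cells (1.60 ± 0.19, adjusted p = 0.00015). Wnt5a and Wnt5b, both non-canonical ligands of growth plate cartilage, rose by 1.31 ± 0.20 and 1.03 ± 0.16 (adjusted p = 0.001 each), with Wnt5b at 38.7 to 44.4 FPKM in EMB+ and 15.4 to 24.4 FPKM in EMB- cells. Wnt9a, a ligand of joints, fell, at 0.631, 1.33, 2.26 and 1.95 FPKM in EMB+ cells and 5.08, 4.89, 7.68 and 5.85 FPKM in EMB- cells (-1.47 ± 0.23, adjusted p = 0.0012). Secreted inhibitors went both ways. Sfrp1 rose (1.24 ± 0.20, adjusted p = 0.0013), whereas Sfrp2 (-1.46 ± 0.19, adjusted p = 0.00038), Dkk1 (-1.23 ± 0.25, adjusted p = 0.0055) and Dkk3 (-0.91 ± 0.18, adjusted p = 0.0051) fell along with Sfrp5. Sfrp2 had 13.7 to 21.1 FPKM in EMB+ and 37.3 to 59.1 FPKM in EMB- cells. The Wnt amplifier gene Rspo2 and the receptor gene Fzd4 fell (-1.06 ± 0.24 and -0.94 ± 0.22, adjusted p = 0.0097 and 0.013). Tcf7, a transcription factor of the pathway, rose, at 23.98, 29.9, 16.4 and 16.7 FPKM in EMB+ cells and 7.25, 7.33, 5.24 and 3.18 FPKM in EMB- cells (1.76 ± 0.26, adjusted p = 0.00077), and its relative Lef1 did not pass (adjusted p = 0.72). The target gene Axin2 was too low to be tested, at 0.495 to 0.699 FPKM in EMB+ and 0.466 to 1.64 FPKM in EMB- cells.

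Of the other growth factors, the calls numbered 0 rises and 3 falls among 10 tested IGF genes (4 falls without EMB- replicate 4) and 1 rise and 2 falls among 16 FGF genes (2 and 2 without it), where 7.51% and 10.6% of all genes passed. Igfbp6, a secreted IGF-binding protein, stood at 11.4, 18.3, 15.8 and 14.8 FPKM in EMB+ cells, against 86.3, 106, 73.6 and 187.6 FPKM in EMB- cells (-2.75 ± 0.27, adjusted p = 4.3e-05). Igf1, the ligand, had 7.57, 15.8, 14.5 and 14.0 FPKM in EMB+ cells and 28.4, 33.5, 38.8 and 28.5 FPKM in EMB- cells (-1.29 ± 0.22, adjusted p = 0.0019). Every EMB+ library was below every EMB- library in both. Igf2 and Igf1r did not pass (adjusted p = 0.79 and 0.46). The third fall of the list, Igfbp3 (-0.85 ± 0.25, adjusted p = 0.034), lost its call without any library other than EMB- replicate 4 or EMB+ replicate 3 (adjusted p between 0.0543 and 0.106). Fgfr3, the receptor that restrains chondrocyte division, had 109.6, 87.2, 136 and 133 FPKM in EMB+ cells and 62.0, 50.9, 73.8 and 28.6 FPKM in EMB- cells (1.16 ± 0.27, adjusted p = 0.013). Its ligand gene Fgf18 went the other way, with 4.27, 3.27, 7.62 and 6.43 FPKM in EMB+ cells and 17.1, 13.4, 21.1 and 26.3 FPKM in EMB- cells (-1.69 ± 0.26, adjusted p = 0.00095). Hey1, a Notch and BMP target, rose, with 4.85 to 6.45 FPKM in EMB+ and 1.17 to 1.73 FPKM in EMB- cells (1.44 ± 0.16, adjusted p = 0.0001).

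Bone genes did not move as a block, with 4 rises and 3 falls among 20 tested (7.51% and 10.6% over all genes). The rises numbered 2 without EMB+ replicate 1 or 2, and without EMB- replicate 4 there were 5 rises and 5 falls. Ifitm5, an osteoblast membrane protein, had 281, 282, 128 and 130.5 FPKM in EMB+ cells and 94.6, 75.4, 35.2 and 74.0 FPKM in EMB- cells (1.52 ± 0.36, adjusted p = 0.012). Mepe, a matrix phosphoprotein of osteocytes (chromosome 5, 104325329 to 104338611), fell steeply, at 5.88, 7.69, 5.99 and 6.91 FPKM in EMB+ cells and 126, 69.4, 62.6 and 62.1 FPKM in EMB- cells (-3.35 ± 0.22, adjusted p = 2.9e-06). Its EMB+ values were nearly equal. Pdpn (podoplanin), a marker of young osteocytes, and Omd (osteomodulin) also fell (-0.92 ± 0.17 and -1.14 ± 0.23, adjusted p = 0.0033 and 0.006). Col1a1, the main collagen gene of bone, split the EMB+ libraries instead, with 16583 and 20029 FPKM in EMB+ replicates 1 and 2 and 8437 and 8212 FPKM in 3 and 4, against 13187, 12227, 10093 and 7446 FPKM in EMB- cells (adjusted p = 0.69). Bglap (osteocalcin), which shares sequence with its neighbour Bglap2, so that reads may be divided between them, showed the same split, with 3730.3, 3204, 1932 and 1920.0 FPKM in EMB+ cells and 3228, 2427, 816 and 1251 FPKM in EMB- cells (adjusted p = 0.35).

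Many tendon and fibroblast genes fell in EMB+ cells. Of 13 tendon and ligament genes 5 fell and 1 rose (6 and 1 without EMB- replicate 4), and of 15 fibroblast and periosteum genes 9 fell and 2 rose, where 10.6% and 7.51% of all genes did (medians -0.70 and -1.13). Tnmd (tenomodulin), a tendon membrane protein, stood at 27.9, 41.6, 49.1 and 41.1 FPKM in EMB+ cells, against 146, 120.5, 172.8 and 279.5 FPKM in EMB- cells (-2.10 ± 0.26, adjusted p = 0.00025). Kera (keratocan) had 1.98 to 4.78 FPKM in EMB+ and 17.9 to 24.7 FPKM in EMB- cells (-2.25 ± 0.21, adjusted p = 3.7e-05), and Thbs4 had 43.7 to 67.0 and 109 to 136 FPKM (-1.20 ± 0.18, adjusted p = 0.00075). Scx, the tendon transcription factor, did not pass, with 10.7 to 15.7 FPKM in EMB+ and 11.1 to 33.5 FPKM in EMB- cells (adjusted p = 0.5). Ly6a (Sca-1), a surface marker of fibroblasts and progenitors, had 3.24, 3.67, 3.51 and 4.43 FPKM in EMB+ cells and 29.9, 44.1, 32.2 and 60.1 FPKM in EMB- cells (-3.13 ± 0.22, adjusted p = 3.5e-06). Dpt (dermatopontin) had 2.12, 3.45, 3.75 and 3.35 FPKM in EMB+ cells and 29.8, 32.9, 25.4 and 35.5 FPKM in EMB- cells (-2.94 ± 0.18, adjusted p = 1.3e-06). Cd34 had 5.68 to 7.16 FPKM in EMB+ and 27.3 to 34.7 FPKM in EMB- cells (-2.11 ± 0.14, adjusted p = 3e-06). In these 3 genes the EMB- libraries were uniformly the higher. Col3a1, the fibrillar collagen of soft connective tissue, fell (-1.13 ± 0.24, adjusted p = 0.0069), as did Mfap5 (-2.53 ± 0.28, adjusted p = 0.00011), a microfibril protein. The 2 exceptions were Lum (lumican), which rose with 454, 504, 398 and 395 FPKM in EMB+ cells and 184.8, 174.9, 142 and 92.8 FPKM in EMB- cells (1.59 ± 0.23, adjusted p = 0.00067), and Fap, a surface protease (0.68 ± 0.16, adjusted p = 0.011). Pdgfra and Dcn, also used as fibroblast markers, did not pass (adjusted p = 0.54 and 0.56).

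Elastic fibre genes went both ways, with 3 rises and 5 falls among 20, and 5 and 8 without EMB- replicate 4. Over all genes the shares were 7.51% and 10.6%, and 17.3% and 15% without that library. Loxl4, a crosslinking oxidase, stood at 65.5, 62.7, 70.2 and 61.0 FPKM in EMB+ cells, against 18.8, 19.1, 15.5 and 7.48 FPKM in EMB- cells (2.098 ± 0.25, adjusted p = 0.00018). Fbln2 (fibulin 2) had 4.17 to 7.78 FPKM in EMB+ and 13.1 to 28.0 FPKM in EMB- cells (-1.75 ± 0.24, adjusted p = 0.00054). Most genes of limb patterning did not pass. There were 4 rises and 1 fall among 25 (7.51% and 10.6% over all genes), and 7 and 1 without EMB- replicate 4 (17.3% and 15%). None of the 9 tested Hox genes passed in the fit of 8 libraries. Tbx2 had 34.5, 34.6, 18.0 and 18.8 FPKM in EMB+ cells and 14.5, 10.8, 5.43 and 4.85 FPKM in EMB- cells (1.53 ± 0.34, adjusted p = 0.0091), again with replicates 1 and 2 the higher in both groups. Tbx5, a transcription factor known for the forelimb, was low but rose, with 1.38 to 3.53 FPKM in EMB+ and 0.214 to 0.733 FPKM in EMB- cells (1.20 ± 0.23, adjusted p = 0.0039). Prrx2, a limb mesenchyme factor, fell (-1.08 ± 0.26, adjusted p = 0.016). Among 29 guidance genes 5 rose and 3 fell (7.51% and 10.6% over all genes), and 8 rose and 4 fell without EMB- replicate 4 (17.3% and 15%). Efnb1 (ephrin B1) rose, with 28.9 to 40.6 FPKM in EMB+ and 12.3 to 15.7 FPKM in EMB- cells (1.22 ± 0.15, adjusted p = 0.00028), as did its receptor gene Ephb2 (0.99 ± 0.18, adjusted p = 0.0027), while the netrin ligand gene Ntn1 fell (-1.42 ± 0.30, adjusted p = 0.0068) and the netrin receptor gene Unc5b rose (1.11 ± 0.23, adjusted p = 0.0057).

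Most cell division genes tested fell in EMB+ cells. Of 30 tested genes of DNA replication 28 fell and 0 rose (median -1.80), and of 30 of mitosis 27 fell and 0 rose (median -1.84). All 60 fell without EMB- replicate 4. Over all genes, 10.6% fell with 8 libraries and 15% without that library. In the fits without any other library, the mitosis falls numbered 22 to 24 and the replication falls 27 or 28. Ube2c, a ubiquitin carrier of mitotic exit, stood at 15.3, 16.7, 11.1 and 18.6 FPKM in EMB+ cells, against 201, 332, 135 and 193 FPKM in EMB- cells (-3.66 ± 0.26, adjusted p = 4e-06). Rrm2, the ribonucleotide reductase subunit made in S phase, had 19.4, 21.5, 16.8 and 19.2 FPKM in EMB+ cells and 261, 474, 191.6 and 116 FPKM in EMB- cells (-3.51 ± 0.34, adjusted p = 4.3e-05). Mki67 had 1.35, 1.36, 1.81 and 2.03 FPKM in EMB+ cells and 11.5, 24.4, 12.8 and 8.07 FPKM in EMB- cells (-2.43 ± 0.28, adjusted p = 0.00013). EMB+ libraries were close to each other, whereas EMB- libraries differed widely, with replicate 2 the highest. Ccne1 (cyclin E1) fell by 3.02 ± 0.30 (adjusted p = 4.6e-05), Tk1 by 2.84 ± 0.23 (adjusted p = 1e-05), Birc5 by 2.76 ± 0.24 (adjusted p = 2.3e-05) and Pcna by 1.80 ± 0.20 (adjusted p = 0.00011). Foxm1, the transcription factor of mitotic genes, and Anln did not pass with 8 libraries (adjusted p = 0.38 and 0.41).

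Cyclins of early G1 and their inhibitors went both ways, and most did not pass. Ccnd1 (cyclin D1) rose, with 9.26, 10.1, 13.8 and 15.9 FPKM in EMB+ cells and 3.40, 3.14, 3.33 and 8.98 FPKM in EMB- cells (1.29 ± 0.29, adjusted p = 0.0099). EMB- replicate 4 came close to the EMB+ values. Ccnd3, by contrast, had 96.6, 102, 109 and 94.7 FPKM in EMB+ cells and 273, 339, 210.1 and 225 FPKM in EMB- cells (-1.35 ± 0.18, adjusted p = 0.00045), and Ccnd2 did not pass (adjusted p = 0.91). The CDK inhibitor genes Cdkn2c and Cdkn2d fell (-0.93 ± 0.21 and -1.95 ± 0.21, adjusted p = 0.011 and 9.7e-05), whereas Cdkn1a (p21), at 321 to 354 FPKM in EMB+ and 256 to 719.6 FPKM in EMB- cells, did not pass (adjusted p = 0.89). Of the 13 tested genes 1 rose and 4 fell (7.51% and 10.6% over all genes), with 4 rises without EMB- replicate 4.

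**Figure D4:**
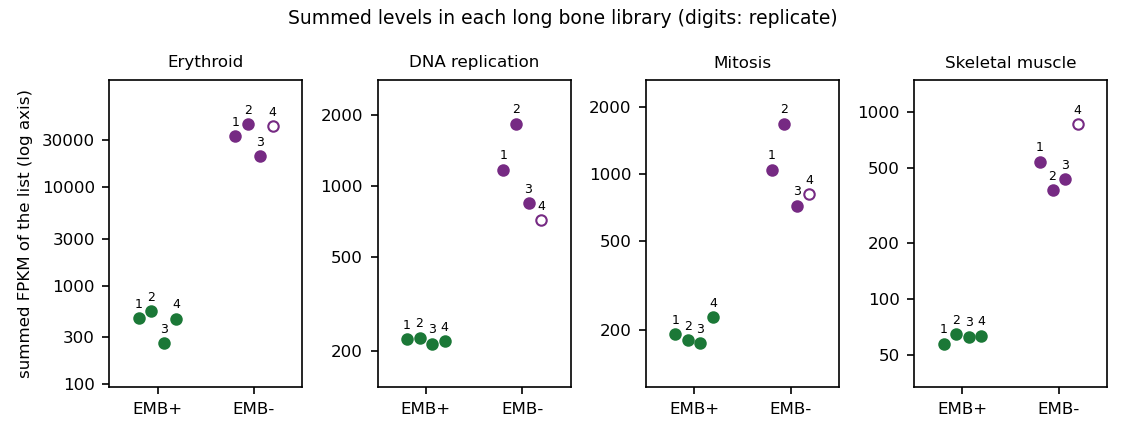
Summed FPKM of the erythroid, DNA replication, mitosis and skeletal muscle lists in each long bone library on log axes, EMB+ (green) left and EMB- (purple) right, with the replicate number at each point and EMB- replicate 4 open. Erythroid sums are 259 to 549.7 in EMB+ cells and 20720.0 to 43755 in EMB- cells, and in EMB- cells replicate 2 is the highest for erythroid, replication and mitosis genes.

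Summed levels show the division and erythroid lists side by side in each library. The summed FPKM of the replication list was 225.5, 227.8, 215.7 and 221.0 in EMB+ cells and 1171, 1832, 846.4 and 717.4 in EMB- cells, and that of mitosis 192.1, 180.0, 174.01 and 228.6 in EMB+ cells and 1043, 1673, 719.5 and 809.9 in EMB- cells. Summed erythroid genes stood at 467, 549.7, 259 and 463 in EMB+ cells and 32780.0, 43755, 20720.0 and 41454 in EMB- cells. EMB- replicate 2 thus had the highest sum in all 3 lists, while EMB- replicate 4 had the lowest replication sum and an erythroid sum above those of replicates 1 and 3. The part of erythroid cells in the division genes was not tested. In bulk samples fewer cells of a type and less RNA per cell cannot be told apart.

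Promoters of the mitotic genes are shown because 2 short elements recur in them. The sequences (RefSeq, GRCm38.p6) run 5′ to 3′ from 250 bases before to 50 bases after the gene start, and capitals mark the CCAAT box (CCAAT, or ATTGG on the opposite strand) and the CHR element (TTTGAA, or TTCAAA on the opposite strand). Ube2c lies on chromosome 2 (chr2:164769679-164769978, plus strand) and Ccnb2, the gene of mitotic cyclin B2 (2.52 lower on the log2 scale in EMB+ cells, SE 0.26, adjusted p = 6.1e-05), on chromosome 9 (chr9:70421505-70421804, minus strand).
Ube2c: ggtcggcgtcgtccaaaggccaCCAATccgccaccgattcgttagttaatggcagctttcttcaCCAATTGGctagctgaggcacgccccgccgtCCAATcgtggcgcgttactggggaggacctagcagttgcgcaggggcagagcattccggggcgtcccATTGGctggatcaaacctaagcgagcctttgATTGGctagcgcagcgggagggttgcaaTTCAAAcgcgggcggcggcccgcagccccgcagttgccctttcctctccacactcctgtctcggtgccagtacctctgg
Ccnb2: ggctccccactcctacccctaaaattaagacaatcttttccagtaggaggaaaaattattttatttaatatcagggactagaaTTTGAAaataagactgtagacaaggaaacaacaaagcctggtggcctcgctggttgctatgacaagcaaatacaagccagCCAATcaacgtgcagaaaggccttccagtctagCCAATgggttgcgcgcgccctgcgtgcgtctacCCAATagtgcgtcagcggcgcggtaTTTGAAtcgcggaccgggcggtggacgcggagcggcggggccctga
Of the 25 mitosis genes with a RefSeq promoter, 22 (88%) held a CCAAT box, 19 (76%) a CHR element and 18 (72%) both. In the 25 replication genes with a promoter these shares were 64%, 16% and 12%, and in the promoters of 8597 tested genes 38.7%, 11.4% and 4.82%. Over all 27025 promoters of the table they were 37.9%, 18.1% and 7.12%. Both strands were searched, and CCAAT boxes on opposite strands can overlap, as in the Ube2c promoter. A match describes these letters in this window and nothing about binding.

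Erythroid genes were among the largest falls. All 28 tested erythroid genes fell (median -4.87), with every EMB+ library below every EMB- library, and this count of 28 was the same without any single library. Genes such as Gata1 passed the filter through the EMB- libraries alone, which favoured a fall and groups that do not overlap. Hba-a1, an alpha globin gene, stood at 140.4, 163.7, 73.6 and 124 FPKM in EMB+ cells, against 10360.0, 13728, 6565 and 15071 FPKM in EMB- cells (-6.49 ± 0.32, adjusted p = 5.4e-07). Globin genes have near-identical copies, Hba-a1 with Hba-a2 and Hbb-bs with Hbb-bt, so the value of each copy is uncertain. The transcription factor Klf1 had 1.43, 0.943, 0.290 and 1.06 FPKM in EMB+ cells and 135, 216, 82.4 and 86.7 FPKM in EMB- cells (-6.01 ± 0.30, adjusted p = 6.2e-07). The sort excluded Ter119, an antigen of maturing red cells, and Ptprc (CD45) was below 1 FPKM in every library. Transcripts of early erythroid regulators and of late products were both present in EMB- libraries: Gata1 had 20.6 to 55.4 FPKM and Epor 15.4 to 41.7 FPKM in EMB- cells, with at most 0.984 and 1.25 FPKM in EMB+ cells. Embryonic globins, Hbb-y and Hbb-bh1, were listed at 0 in all EMB+ libraries and did not exceed 0.556 FPKM in EMB- libraries.

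Heme synthesis followed, with 12 of 13 tested genes lower and 0 higher. Alas2, the erythroid form of the first enzyme, stood at 4.16, 6.07, 2.72 and 4.10 FPKM in EMB+ cells, against 362, 607, 262 and 257 FPKM in EMB- cells (-6.09 ± 0.28, adjusted p = 5.4e-07). Alas1, the form used by other cells, had 8.71, 9.27, 10.6 and 8.92 FPKM in EMB+ cells and 8.63, 6.19, 8.26 and 8.97 FPKM in EMB- cells and did not pass (0.21 ± 0.16, adjusted p = 0.39). The 2 forms thus behaved differently within the same libraries. Tfrc, the transferrin receptor gene, fell (-1.48 ± 0.43, adjusted p = 0.036), but only with all 8 libraries or without EMB- replicate 4, since leaving out any other library gave adjusted p between 0.0544 and 0.103. The Alas2 promoter (RefSeq, GRCm38.p6, chrX:150547167-150547466, plus strand) is shown for the GATA factor motif, AGATAA, whose match on the opposite strand (TTATCT) is in capitals.
Alas2: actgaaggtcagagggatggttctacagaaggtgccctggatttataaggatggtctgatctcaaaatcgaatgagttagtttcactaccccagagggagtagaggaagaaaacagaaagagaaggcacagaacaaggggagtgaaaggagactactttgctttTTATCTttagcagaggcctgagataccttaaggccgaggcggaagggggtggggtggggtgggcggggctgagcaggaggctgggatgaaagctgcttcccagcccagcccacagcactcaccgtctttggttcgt
This motif was found in 8 of the 21 erythroid genes with a promoter (38.1%) and in 3 of 10 heme genes (30%), against 5.85% of the promoters of tested genes and 11.4% of all promoters in the table.

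The leading falls outside those lists included further genes known from red cell precursors. Car2, a cytosolic carbonic anhydrase, stood at 14.2, 13.3, 7.15 and 12.98 FPKM in EMB+ cells, against 874, 1324, 597 and 475 FPKM in EMB- cells (-5.92 ± 0.32, adjusted p = 7.3e-07). The direction was thus opposite to that of Car12. Ctse (cathepsin E) had 2.22, 1.62, 0.547 and 1.33 FPKM in EMB+ cells and 180.1, 299, 119 and 82.1 FPKM in EMB- cells (-6.02 ± 0.36, adjusted p = 1.2e-06). Tspan33 fell by 6.04 ± 0.32 (adjusted p = 7.3e-07), Icam4 (the LW blood group antigen) by 5.50 ± 0.27 (5.4e-07 as adjusted p), and the transcription factors E2f2 and Gfi1b by 4.99 ± 0.33 and 4.62 ± 0.39 (adjusted p = 2.6e-06 and 1.4e-05). Cldn13, Nxpe2, Isg20, Hbq1b, Ube2l6 and Tspan15 had mean changes between -5.35 and -4.35. The groups of all leading genes did not overlap, which was a condition for naming them.

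Markers of other cell types were few, and some also differed. Of 5 tested skeletal muscle genes 4 fell and 0 rose, where 10.6% and 7.51% of all genes did (1 rose without EMB- replicate 4). Myog (myogenin) was listed at 0 in EMB+ replicates 1 to 3 and stood at 0.158 FPKM in replicate 4, against 20.1, 28.4, 7.28 and 23.1 FPKM in EMB- cells (-4.18 ± 0.33, adjusted p = 9.4e-06). This gene passed the filter through the EMB- libraries alone, which favoured a fall. Myod1, Myf5 and Pax7 were listed at 0 in all EMB+ libraries and reached 3.63, 1.19 and 0.336 FPKM in EMB- libraries. Summed muscle genes were 57.9 to 64.9 FPKM in EMB+ and 382 to 859.0 FPKM in EMB- cells. Most of that sum was Tnni2, a fast troponin, with 50.7, 55.3, 55.5 and 53.2 FPKM in EMB+ cells and 497, 322, 416 and 799 FPKM in EMB- cells (-3.14 ± 0.25, adjusted p = 9.4e-06). Of 4 tested Schwann cell and neuron genes 3 fell and 0 rose (median -2.26), and 1 rose without EMB- replicate 4. Summed Schwann and neuron genes were 50.5 to 70.1 FPKM in EMB+ and 55.5 to 131.6 FPKM in EMB- cells.

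Neutrophil genes were spread unevenly over both groups, with sums of 132.8 to 986.2 FPKM in EMB+ and 234.4 to 884.2 FPKM in EMB- cells. Of 14 tested 3 rose and 0 fell, where 7.51% and 10.6% of all genes did. The rises were 4 without EMB- replicate 4, and 1 without any one of 6 libraries named below. The granule gene Mpo (myeloperoxidase) had 24.3, 77.0, 28.0 and 10.5 FPKM in EMB+ cells and 0.483, 2.02, 1.06 and 12.5 FPKM in EMB- cells (3.09 ± 0.68, adjusted p = 0.0089), with EMB- replicate 4 above the lowest EMB+ library. Elane and Prtn3, of the same early granules, passed with 8 libraries (adjusted p = 0.039 and 0.031) and lost their calls without EMB- replicate 1 (0.0937 and 0.0877), 2 (0.111 and 0.0684) or 3 (0.0996 and 0.0776) or EMB+ replicate 1 (0.0883 and 0.0655), 2 (0.114 and 0.0925) or 3 (0.0885 and 0.0793). Genes of mature neutrophils, S100a8 and S100a9, did not pass (adjusted p = 0.87 and 0.69). Of the macrophage genes, Csf1r, Adgre1 and Mrc1 were below 1 FPKM in all 8 libraries, while Cd68, C1qa, C1qb and C1qc were not. The sum of the macrophage and osteoclast list, which holds Mmp9, was 75.0 to 111.5 FPKM in EMB+ and 36.3 to 74.6 FPKM in EMB- cells. Of its 4 tested genes 1 rose and 2 fell, where 7.51% and 10.6% of all genes did. Of 12 endothelial genes 3 could be tested and 0 passed with 8 libraries or without EMB- replicate 4, with sums of 6.69 to 17.1 FPKM in EMB+ and 10.4 to 15.1 FPKM in EMB- cells. Megakaryocyte sums ranged from 13.04 to 103.0 FPKM in EMB+ and from 13.7 to 133.0 FPKM in EMB- cells, and 0 of 5 tested genes passed. The part of these cell types in the results was not tested.

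Housekeeping lists depended on EMB- replicate 4. Over all genes 7.51% rose and 10.6% fell with 8 libraries, and 17.3% and 15% without that library. Of 80 tested genes of the cytosolic ribosome 4 rose and 0 fell with 8 libraries (median 0.43), and 79 rose without that library (median 0.71) or 25 with quantile normalization. Leaving out any other single library gave 1 to 3 rises, with 2 without EMB- replicate 1, 2 or 3 or EMB+ replicate 1 or 4, 3 without EMB+ replicate 2 and 1 without EMB+ replicate 3. Of 79 respiratory chain genes 0 rose and 3 fell with 8 libraries, and 21 rose and 4 fell without that library. Of 25 genes of glycolysis and hypoxia 0 rose and 2 fell, and 6 rose and 3 fell without it. Ldha, which makes lactate, had 585, 488, 598 and 642 FPKM in EMB+ cells and 376, 277, 359.9 and 528 FPKM in EMB- cells (0.62 ± 0.22, adjusted p = 0.075), with a rise of 0.78 without it (adjusted p = 0.0021).

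The EMB change in long bone was then set against that in vertebral cells sorted the same way, in a fit of all 24 libraries over 11736 genes. Emb itself stood at 44.4 to 55.3 FPKM in the libraries labelled vertebral GFP- EMB+, whose titles name another sort, and at 0.855 to 1.32 FPKM in vertebral GFP- EMB- libraries. The EMB change was higher, that is more positive, in long bone than in vertebral GFP- cells for 596 genes (5.08%) and lower for 2899 (24.7%), and higher than in vertebral GFP+ cells for 654 (5.57%) and lower for 2924 (24.9%). These counts were 679 and 3488, and 826 and 3540, without long bone EMB- replicate 4. The median difference over all genes was -0.27 and -0.23. With median-ratio scaling it was -0.01 and 0.01, and the counts were then 1038 and 1236 genes against GFP- cells and 1210 and 1637 against GFP+ cells. With quantile normalization they were 1239 and 1220 against GFP- cells and 1691 and 1487 against GFP+ cells. With a common FPKM sum outside the erythroid list they were 748 and 1708 against GFP- cells and 780 and 2103 against GFP+ cells. Single differences below are therefore read against those medians. Within vertebra, 4886 genes (41.6%) were higher and 1247 (10.6%) lower in GFP- EMB+ than in GFP- EMB- cells, and 4945 (42.1%) were higher and 923 (7.86%) lower in GFP+ EMB+ than in GFP+ EMB- cells.

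Msmp differed most of the genes named. In vertebra it was lower in EMB+ cells, at 7.92 ± 2.24 FPKM in GFP- EMB+ and 42.0 ± 14.3 FPKM in GFP- EMB- cells, and at 12.01 ± 3.23 FPKM in GFP+ EMB+ and 35.04 ± 14.6 FPKM in GFP+ EMB- cells (SD, n = 4 each). The difference of the EMB change, long bone minus vertebra, was 10.35 ± 0.47 for GFP- cells (adjusted p = 3.4e-13) and 9.51 ± 0.47 for GFP+ cells (adjusted p = 6.1e-13). Stc1 rose in long bone but stayed below 1 FPKM in all vertebral groups, with 0.165 ± 0.0991 and 0.0382 ± 0.0199 FPKM in vertebral GFP- EMB+ and EMB- cells (differences 2.86 ± 0.27 and 2.70 ± 0.27, adjusted p = 1.9e-08 and 1.7e-08). Il17b and Bpifb1 rose in all 3 sources, by more in long bone. For Il17b the differences were 0.96 ± 0.31 and 2.05 ± 0.31 (adjusted p = 0.019 and 1e-05), and for Bpifb1 0.91 ± 0.24 and 1.53 ± 0.24 (adjusted p = 0.0051 and 1.6e-05). Car12 changed by 3.10 ± 0.22 in long bone, 3.00 ± 0.22 in vertebral GFP- and 2.67 ± 0.22 in GFP+ cells, and its differences of 0.11 ± 0.32 and 0.43 ± 0.32 did not pass (adjusted p = 0.84 and 0.33).

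Some genes fell in vertebral EMB+ cells and fell less or did not pass in long bone. Padi2, an enzyme that converts arginine to citrulline, had 2.41 ± 1.55 FPKM in vertebral GFP- EMB+ and 63.7 ± 13.8 FPKM in GFP- EMB- cells, while in long bone it lay between 0.953 and 1.80 FPKM in all 8 libraries (differences 4.43 ± 0.29 and 3.66 ± 0.29, adjusted p = 4.5e-11 and 3.8e-10). Cilp (cartilage intermediate layer protein) had 51.2, 69.6, 92.6 and 112 FPKM in long bone EMB+ cells and 103, 128, 186.3 and 108 FPKM in long bone EMB- cells, and among vertebral GFP+ cells 5.97 ± 0.815 FPKM in EMB+ and 189.96 ± 27.0 FPKM in EMB- cells (differences 3.66 ± 0.38 and 4.07 ± 0.38, adjusted p = 1.4e-07 and 7.9e-09). Gas1 fell in all 3 sources but less in long bone (differences 3.04 ± 0.26 and 2.98 ± 0.26, adjusted p = 4.3e-09 and 2.1e-09).

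For several hypertrophic genes the EMB change was lower in long bone than in vertebra. Of the 20 genes tested, the change was lower in long bone for 12 and higher for 2 against GFP- cells, where 24.7% and 5.08% of all genes were, and lower for 7 and higher for 2 against GFP+ cells, where 24.9% and 5.57% were. The second count is not far from that share. Ihh, Dlx5, Col10a1 and Runx2 rose in all 3 sources. Ihh had 159 ± 9.21 FPKM in vertebral GFP- EMB+ and 4.80 ± 1.66 FPKM in GFP- EMB- cells (differences -2.27 ± 0.29 and -1.15 ± 0.29, adjusted p = 2.3e-06 and 0.0033). Dlx5 differed in the same direction (-2.75 ± 0.18 and -1.81 ± 0.18, adjusted p = 4.5e-11 and 1.6e-08). Col10a1 had 142 ± 38.5 FPKM in vertebral GFP- EMB+ and 2.84 ± 2.36 FPKM in GFP- EMB- cells (differences -1.77 ± 0.47 and -1.43 ± 0.47, adjusted p = 0.0061 and 0.022), and with median-ratio scaling the second was lost (-1.19, adjusted p = 0.083). Its level was higher in long bone on both sides of the sort, with 14.8 to 30.5 FPKM in long bone EMB- cells. For Runx2 the difference passed against GFP- cells (-1.72 ± 0.24, adjusted p = 8.7e-06) and not against GFP+ cells (-0.53 ± 0.24, adjusted p = 0.096), where it passed without EMB- replicate 4 (-0.64, adjusted p = 0.031). Wnt11, a non-canonical ligand, had 42.0, 32.9, 45.0 and 36.0 FPKM in long bone EMB+ cells and 15.6, 10.4, 24.2 and 33.4 FPKM in long bone EMB- cells, against 148 ± 14.3 FPKM in vertebral GFP- EMB+ and 4.44 ± 1.31 FPKM in GFP- EMB- cells (differences -3.83 ± 0.35 and -2.70 ± 0.35, adjusted p = 1.1e-08 and 1e-06). Its rise in long bone lost its call without EMB- replicate 1 or 2 or any 1 EMB+ replicate (adjusted p between 0.0681 and 0.113).

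Cell division genes differed by source even in direction. Ube2c fell in long bone, fell less in vertebral GFP- cells (24.1 ± 4.42 FPKM in EMB+ and 62.9 ± 15.7 FPKM in EMB- cells, change -1.33 ± 0.22, adjusted p = 2.1e-05) and rose in vertebral GFP+ cells (23.1 ± 1.68 FPKM in EMB+ and 6.02 ± 1.59 FPKM in EMB- cells, change 1.80 ± 0.22, adjusted p = 3.5e-07). The differences were -2.33 ± 0.31 and -5.46 ± 0.31 (adjusted p = 4.5e-06 and 2.3e-12). Of the mitosis genes 27 of 30 had the lower change in long bone against GFP- cells and 30 of 30 against GFP+ cells, with 0 higher in either. Of the 28 erythroid genes the change was lower in long bone for 20 and 28. Over all genes it was lower for 24.7% against GFP- cells and 24.9% against GFP+ cells. Klf1 had 0.907 ± 0.557 FPKM in vertebral GFP- EMB+ and 40.1 ± 6.32 FPKM in GFP- EMB- cells, and 1.13 ± 0.323 FPKM in GFP+ EMB+ and 1.28 ± 0.328 FPKM in GFP+ EMB- cells (differences -1.55 ± 0.35 and -5.91 ± 0.35, adjusted p = 0.0015 and 4.3e-12). The order of the EMB- groups was thus the same for Ube2c and Klf1, and the part of erythroid cells in this was not tested. F13a1, the A chain of a clotting factor, rose in vertebral EMB+ cells and did not pass in long bone, where it had 19.97, 32.2, 29.0 and 28.7 FPKM in EMB+ cells and 42.6, 50.5, 56.5 and 22.6 FPKM in EMB- cells (differences -3.73 ± 0.33 and -4.24 ± 0.33, adjusted p = 8.8e-09 and 3.5e-10).

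**Figure D5:**
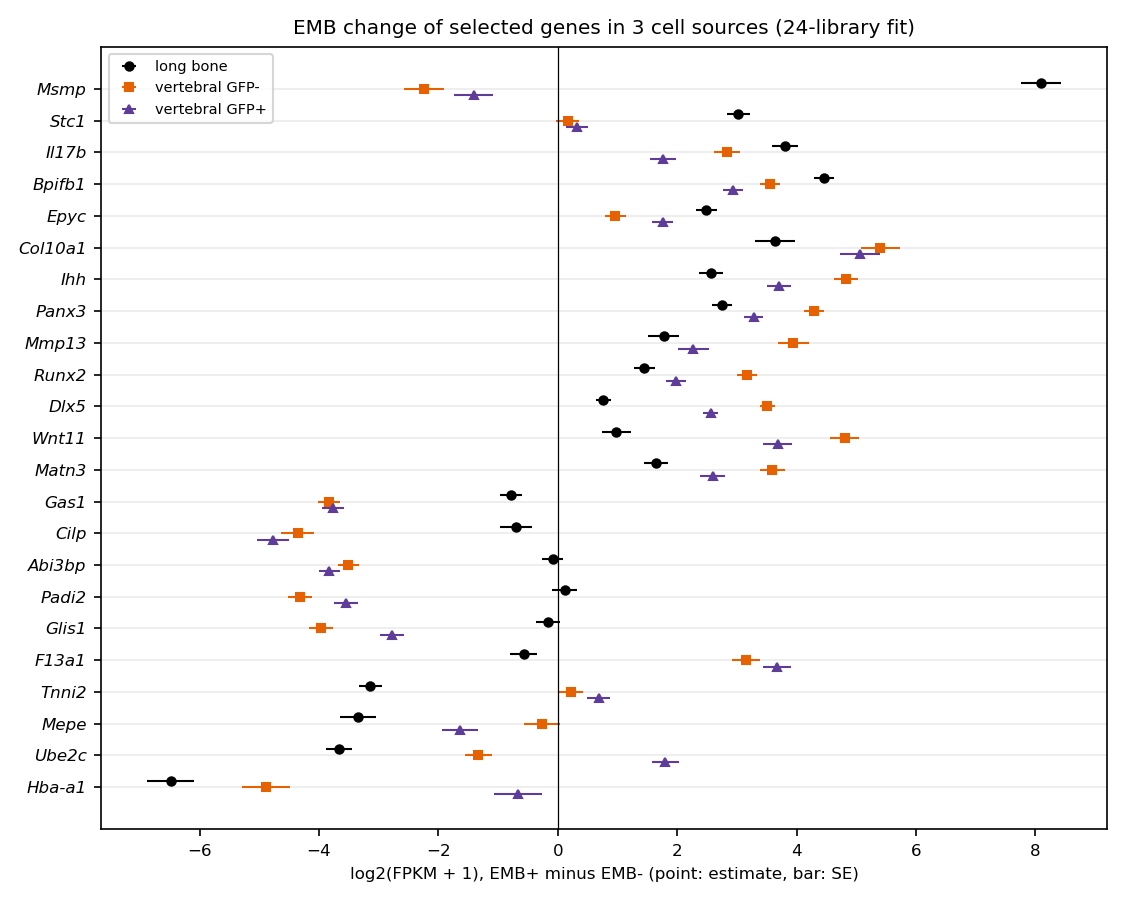
EMB change, EMB+ minus EMB- on the log2(FPKM + 1) scale, of selected genes in long bone (black circles), vertebral GFP- (orange squares) and vertebral GFP+ cells (purple triangles), each estimate with its SE, from the fit of all 24 libraries. Msmp lies at 8.10 in long bone and at -2.25 and -1.41 in vertebra, while Ube2c lies at -3.66, -1.33 and 1.80.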

How the data were processed

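RNA of sorted cells was made into SMART-Seq v4 and Nextera XT libraries, per the labels' protocols, a method that does not mark strand, so a gene and an overlapping antisense gene cannot be told apart. The authors deposited 1 table of FPKM values for protein-coding genes on GRCm38. Per the submitters' processing notes the tools included bcl2fastq 2.19, STAR 2.5.2 and Cufflinks 2.1.1. The table holds no counts, so depth per library is unknown and no counting interval is given. Of 22053 entries, 186 with a repeated identifier or symbol and 3 with a failed estimate were left out, and 17 kept genes were marked as low data.

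Values were set to log2(FPKM + 1), a scale that understates the change of low genes, and tested with limma 3.58.1 in R 4.3.3 (empirical Bayes with trend and robust settings, Benjamini-Hochberg adjustment over all genes tested, threshold 0.05). The 8 long bone libraries made the fit of the EMB change, and all 24 libraries, in 6 groups, that of its difference between sources. "Rose" and "fell" are used of genes past that threshold. Libraries were grouped by the cell type label. The titles of the 4 vertebral GFP- EMB+ libraries go against that label, which touches every difference from vertebral GFP- cells, and all 4 long bone EMB+ titles carry the same replicate number, so replicate numbers only name libraries.

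Named genes were those of the sort gate, the 12 largest changes per direction past the threshold with and without EMB- replicate 4 (groups not overlapping, mean of 5 FPKM or more in the higher group, no predicted genes), the same for falls outside the erythroid and heme lists, up to 6 tested members per list by smallest p, other list members given for their role, and 5 per direction for each difference; some genes that these rules name are not reported here. The members, the 46 gene lists and these rules were chosen with earlier results of these data known. Alternatives were other pseudocounts (0.1 and 5), filters, scalings, library weights, a replicate block, the samples in the fit and leaving out each library. Promoters came from a RefSeq table of GRCm38.p6.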

Additional observations from a re-analysis of the deposited data

Results flagged for a closer look

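In 19 of 298 groups of 4 values (6.38%), 1 library was far from the other 3. Independent normal values would give about 1 in 20, but these values come from the same 8 libraries. Groups with 4 equal values, such as those listed at 0 throughout, were counted but could not be flagged. Several flags concern values below 1 FPKM. EMB- replicate 4 was the highest for Ccnd1 (8.98 FPKM), Cd200 (563 FPKM), Cdkn1a (719.6 FPKM), Mpo (12.5 FPKM) and Scx (33.5 FPKM). EMB- replicate 1 was the highest for Mepe (126 FPKM), Mmp9 (36.3 FPKM), Stc1 (0.521 FPKM), Pecam1 (0.796 FPKM) and Mrc1 (0.299 FPKM). EMB- replicate 2 was the lowest for Slc16a3 (24.6 FPKM) and the highest for Oscar (0.190 FPKM), and EMB- replicate 3 the highest for Ibsp (1023 FPKM). Among EMB+ libraries, replicate 1 was the highest for Calcr (0.0184 FPKM), replicate 2 for Adgre1 (0.124 FPKM) and Dcstamp (0.0752 FPKM), replicate 3 for Ocstamp (0.141 FPKM), and replicate 4 for Myog (0.158 FPKM) and Thy1 (0.0234 FPKM).

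Among the genes whose difference between long bone and vertebra is given singly above, 15 passed the limma test of that difference. Other genes passed it as well, many of them on the cell division and erythroid lists. Values are log2 differences, long bone minus vertebral GFP- and then GFP+ cells. The EMB change was higher, that is more positive, in long bone for Msmp (10.3 and 9.51), Padi2 (4.43 and 3.66), Cilp (3.66 and 4.07), Gas1 (3.04 and 2.98), Stc1 (2.86 and 2.70), Bpifb1 (0.91 and 1.53) and Il17b (0.96 and 2.05). It was lower in long bone for Wnt11 (-3.83 and -2.70), F13a1 (-3.73 and -4.24), Dlx5 (-2.75 and -1.81), Ube2c (-2.33 and -5.46), Ihh (-2.27 and -1.15), Col10a1 (-1.77 and -1.43), Klf1 (-1.55 and -5.91) and, against GFP- cells, Runx2 (-1.72).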

How the results depend on the processing

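Of 135 named genes called in long bone, 122 kept their call in every alternative in which they were tested and 0 reversed. Genes higher in EMB+ cells numbered 836 with 8 libraries, 2749 with library weights and 2042 in the fit of all 24 libraries, and between 497 and 1920 when 1 library was left out. Genes lower in EMB+ cells numbered 1176, 2087 with library weights, 1807 in the fit of all 24 libraries and 757 among genes at 5 FPKM or more in at least 4 libraries, where fewer genes were tested (7311), and between 915 and 1673 when 1 library was left out. Calls among list genes numbered 498 with library weights and between 218 (without EMB+ replicate 1) and 439 (without EMB- replicate 4) when a library was left out. Differences from vertebral GFP- cells numbered 2274 with median-ratio scaling. The cause of these shifts was not tested.

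With the replicate number as a block, 720 genes rose and 1122 fell, Elane, Prtn3 and Tfrc lost their calls, and Acan, Comp, Ldha, Pthlh and Spp1 gained one. Long bone libraries of the same number had correlations of 0.031, 0.245, 0.303 and -0.100 of their deviations from the group means. Not every library correlated best with its own number. These mixed values do not settle whether libraries of the same number came from the same animals. Alpl lost its call with median-ratio scaling, quantile normalization and a common FPKM sum outside the erythroid list, Frzb with the last 2, Igfbp3 and Tfrc with the last, and Chad and Elane with a pseudocount of 5. Elane, Frzb, Igfbp3, Prtn3, Tfrc and Wnt11 lost theirs with no filter. Of the 50 named genes not called with 8 libraries, 16 gained a call with library weights and 14 in the fit of all 24 libraries, among them Acan, Col9a3, Comp, Ldha and Pthlh in both. With depth unknown, a gene listed at 0 is not shown to be absent.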
